A study of Mus musculus with 18 samples.

Results

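Complex III, complex IV and ATP synthase are the last machines of mitochondrial respiration. Complex III passes electrons from ubiquinol to cytochrome c, complex IV (cytochrome c oxidase) passes them to oxygen, and ATP synthase makes ATP from the proton gradient that the respiratory chain builds. Most of their subunits are encoded in the nucleus, made on cytosolic ribosomes and imported, and only a few are made inside the mitochondrion. The liver relies on this system for fatty acid oxidation, glucose production and urea synthesis. The genes described here were chosen by name: every listed symbol that begins with Uqcr, with Cox4 to Cox8 or with Atp5, and Cyc1. That gave 44 of 24539 listed genes, of which 9 belong to complex III, 18 to complex IV and 17 carry ATP synthase names. Mitochondrially encoded subunits were not analysed here.

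The livers came from wild-type male C57BL/6 mice, 16 weeks old, in 3 diet groups of 3 livers each. The groups were fed for 8 weeks with a high-fat diet plus lycopene, a carotenoid of tomatoes (HFD+LYC), with the high-fat diet alone (HFD) or with normal chow (control). Each liver gave a poly(A) library from ribosome-nascent chain complexes (RNC), that is messages carried by ribosomes, and a poly(A) library from total RNA (mRNA), so that 18 libraries were compared. Whole livers hold several cell types, so fewer cells of a type and less RNA per cell cannot be told apart. Levels are given as CPM, that is read counts scaled to library size with TMM factors, and changes as log2 fold changes with their standard error (SE) from edgeR's quasi-likelihood test. A gene was called at a Benjamini-Hochberg adjusted p below 0.05 over all genes tested, and the p-values of the diet comparisons rest on the spread among 3 livers per diet. Tests of RNC against mRNA, and of its change with diet, used all 18 libraries without pairing the RNC and mRNA library of a liver. That pairing entered only in an alternative fit with the liver as a block.

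The libraries held 4533729 to 12742436 listed reads. The HFD+LYC RNC libraries stood apart from the rest: 8940, 9567 and 10037 genes had a read there, against 13324 to 14450 in HFD RNC and 14072 to 14333 in control RNC libraries. Their 10 most abundant genes took 31.9% to 47.3% of reads, against 25.7% to 34.2% in HFD RNC libraries. The summed level of 14 hepatocyte markers, all of them detected, was 176070 to 639400 CPM in HFD+LYC RNC and 105320 to 136650 CPM in HFD RNC libraries, so the tissue label held. Such sums are TMM-scaled and are not shares of reads. The TMM factors were 0.428, 1.15 and 0.836 in HFD+LYC RNC and 1.14, 1.34 and 1.15 in HFD RNC libraries. A low factor raises each CPM value, most of all in HFD+LYC RNC replicate 1. The 6 sinusoidal endothelial markers summed to 27.6 to 30.5 CPM in HFD+LYC RNC, against 93.6 to 113 CPM in HFD RNC, and 7 cardiac muscle markers to 34.3 to 91.7 CPM, against 0 to 0.476 CPM, with Myl3 and Nppa at 0 in all 3 HFD+LYC RNC libraries. The 18 skeletal muscle markers summed to 60.0 to 111 CPM in HFD+LYC RNC and 13.2 to 21.3 CPM in HFD RNC libraries, with Ckm, Myh1, Myh2 and Myh4 at 0 in both groups. The 8 adipocyte markers summed to 85.3 to 225 CPM in HFD+LYC RNC and 19.1 to 38.9 CPM in HFD RNC libraries, with Adipoq, Plin1 and Lep at 0 in both groups. The 10 Kupffer cell and macrophage markers summed to 148 to 204 CPM in HFD+LYC RNC and 275 to 488 CPM in HFD RNC libraries. The part of these differences in the results below was not tested.

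The 44 genes together were a small fraction of the liver message pool. They took 0.346%, 1.00% and 0.771% of listed reads in HFD+LYC RNC libraries, 1.09%, 1.33% and 1.24% in HFD RNC libraries and 1.28%, 1.09% and 0.990% in control RNC libraries. The lowest of these, HFD+LYC replicate 1, had an exact 95% binomial interval of 0.342% to 0.349%, which covers counting error only. In mRNA libraries the share was 0.636%, 0.406% and 1.02% in HFD+LYC livers, 0.683%, 0.918% and 0.951% in HFD livers and 1.05%, 0.454% and 0.791% in control livers. The mRNA share therefore overlapped among all 3 diets, and it was lowest in HFD+LYC replicate 2 and control replicate 2. In RNC libraries the HFD+LYC values reached from below all others into the control range. By group mean ATP synthase genes took the largest part, 0.511% ± 0.0909 in HFD RNC libraries (SD, n = 3), against 0.419% ± 0.0368 for complex IV and 0.291% ± 0.00714 for complex III. In HFD+LYC RNC replicate 1, however, complex IV took 0.124% and ATP synthase 0.122%.

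Of the 44 genes, 38 had enough reads to be tested in every fit. The 6 that were not are complex IV isoforms known from other tissues: Cox4i2 (lung), Cox6a2 and Cox8b (heart and skeletal muscle), Cox6b2 and Cox8c (testis) and Cox7b2. No read of Cox7b2 or Cox8c was listed in any of the 18 libraries, and a count of 0 allows up to 0.0341 CPM over the 9 RNC and 0.0401 CPM over the 9 mRNA libraries. Cox6a2 had 6 reads in the 9 RNC libraries and none in the 9 mRNA libraries, against 35658 and 23679 reads of its liver counterpart Cox6a1. Cox8b had 1 and 3 reads, Cox4i2 had 4 and 16, and Cox6b2 had 8 and 7. The liver isoforms were abundant: Cox4i1 averaged 374 ± 67.3 CPM in HFD+LYC, 357 ± 7.89 CPM in HFD and 424 ± 52.9 CPM in control RNC libraries (SD, n = 3 each), and Cox6b1 averaged 223 ± 26.1, 271 ± 32.5 and 285 ± 9.96 CPM in the same order.

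Cox7a1, the heart and muscle form of subunit 7a, was the only muscle form with enough reads for a test. Its RNC level was 4.76, 0 and 2.14 CPM in HFD+LYC livers, 1.27, 1.77 and 1.37 CPM in HFD livers and 0.970, 0.954 and 0.621 CPM in control livers. Its mRNA level was 2.51, 1.22 and 4.02 CPM in HFD+LYC, 0.723, 1.02 and 1.68 CPM in HFD and 2.23, 0.413 and 1.14 CPM in control livers. HFD+LYC overlapped HFD and control in both kinds of library, while in RNC the 3 HFD values lay above the 3 control values. Cox7a1 was not called (HFD against control in RNC, edgeR adjusted p = 1; HFD+LYC over HFD, edgeR adjusted p = 0.728 in RNC and 0.289 in mRNA). Its liver and general form Cox7a2 stood at 166, 205 and 255 CPM in HFD RNC libraries.

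Per length of transcript, small subunits stood highest in each complex in control mRNA libraries. In complex III, Uqcr11 averaged 513 CPM per kb in HFD+LYC, 484 in HFD and 531 in control mRNA libraries, Uqcrb 352, 456 and 527, and Uqcrq 636, 451 and 449. The control replicates of Uqcr11 read 786, 283 and 524 CPM per kb, so neighbours in this order did not differ beyond their spread. In complex IV the leading messages were Cox7c with 823, 823 and 867 CPM per kb in HFD+LYC, HFD and control mRNA libraries, Cox6c with 752, 718 and 724, and Cox6a1 with 471, 649 and 640. In ATP synthase they were Atp5e, the epsilon subunit of the rotor's central stalk, with 789, 566 and 578 CPM per kb, Atp5h (subunit d of the peripheral stalk) with 388, 440 and 488, and Atp5j2 (subunit f of the membrane part) with 309, 443 and 479. The catalytic core stood lower: Atp5b, the beta subunit, averaged 111, 299 and 229 CPM per kb. The lowest of the ATP synthase names was Atp5s, with 2.19, 5.21 and 7.36 CPM per kb. Atp5s and Atp5sl carry ATP synthase names but are listed in RefSeq as Dmac2l and Dmac2, and Dmac2 is known in human cells as an assembly factor of complex I.

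HFD against control asked what the high-fat diet alone did. No member passed the test in either kind of library. By edgeR's quasi-likelihood test 0 of 38 members were called in mRNA and 0 of 38 in RNC, against 0.0158% and 0.00858% of all genes. An unadjusted p below 0.05 was reached by 0 members, against 358 of 12664 genes in mRNA and 214 of 11660 in RNC. DESeq2 and limma-voom also called 0 members. The members' median log2 fold change was 0.01 in mRNA and -0.01 in RNC, against -0.01 and 0.01 over all genes tested. In mRNA, 20 members lay above 0 and 18 below. Without control replicate 1 the mRNA median was 0.40 with 36 members above 0, and without control replicate 2 it was -0.34 with 4 above 0, so the mRNA comparison turned on single control livers.

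The members nearest to a call in HFD against control show this spread. Cox7a2l had 31.3, 39.7 and 81.4 CPM in HFD mRNA and 59.6, 11.02 and 31.9 CPM in control mRNA libraries (log2 fold change 0.57, SE 0.53). Atp5b had 313, 381 and 989 CPM in HFD and 676, 186 and 432 CPM in control mRNA libraries (0.38, SE 0.55). Both genes overlapped between the diets. On the other side Atp5s had 6.72, 8.88 and 7.61 CPM in HFD mRNA and 9.85, 13.8 and 9.14 CPM in control mRNA libraries (-0.50, SE 0.33), and Uqcrb had 189, 220 and 280 CPM against 369, 144 and 283 CPM (-0.21, SE 0.53). In RNC libraries Atp5g1 had 107, 169 and 181 CPM in HFD and 203, 188 and 220 CPM in control livers (-0.42, SE 0.28), and Cox6a1 had 271, 369 and 370 CPM against 420, 426 and 436 CPM (-0.34, SE 0.29). Here the 3 HFD values lay below the 3 control values for both genes, but edgeR's adjusted p was 1. The RNC levels of Cox6c were 675, 478 and 646 CPM in HFD and 571, 532 and 367 CPM in control livers (0.29, SE 0.27). Those of Uqcrfs1 were 330, 292 and 307 CPM in HFD and 252, 256 and 233 CPM in control livers (0.33, SE 0.36), and neither gene passed.

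HFD+LYC against HFD asked what lycopene changed on top of the high-fat diet. In ribosome-bound RNA 11 of 38 members fell (28.9%, against 17.4% of all genes) and 3 rose (7.89%, against 9.34%). The falls reached all 3 complexes: 3 of 9 in complex III, 3 of 12 in complex IV and 5 of 17 in ATP synthase, with 1 rise in each. The members' median log2 fold change was -0.33, close to the -0.29 over all genes tested. The share of members that rose was near that of all genes. In HFD+LYC against control, which shares the HFD+LYC libraries, 11 members fell (28.9%, against 17.1%) and 2 rose (5.26%, against 9.23%), where 26.3% of all genes were called in either direction, and the median was -0.41 against -0.28.

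In complex III, Uqcrfs1, the Rieske iron-sulfur protein that takes electrons from ubiquinol, had 64.4, 174 and 71.0 CPM in HFD+LYC RNC libraries, against 330, 292 and 307 CPM in HFD RNC and 252, 256 and 233 CPM in control RNC libraries. All 3 HFD+LYC values lay below all others, and it fell 3.01-fold against HFD (log2 fold change -1.59, SE 0.36, edgeR adjusted p = 0.0101). Its call against control (adjusted p = 0.0284) was lost in 8 of 17 alternatives. Uqcrc2, a core protein of the matrix arm, had 82.8, 74.6 and 74.2 CPM in HFD+LYC RNC, 159, 257 and 232 CPM in HFD RNC and 180, 184 and 220 CPM in control RNC libraries. It fell 2.80-fold against HFD (-1.49, SE 0.24, edgeR adjusted p = 0.00258), with no overlap. Uqcrb, a small matrix-side subunit, had 115, 154 and 140 CPM in HFD+LYC RNC libraries, 327, 357 and 439 CPM in HFD RNC and 477, 381 and 340 CPM in control RNC, and fell 2.74-fold against HFD (edgeR adjusted p = 0.00296).

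Uqcrq went the other way. This small subunit beside cytochrome b had 1146, 1809 and 1703 CPM in HFD+LYC RNC libraries, above 924, 486 and 620 CPM in HFD RNC and 717, 581 and 459 CPM in control RNC libraries. It rose 2.29-fold against HFD and 2.65-fold against control (edgeR adjusted p = 0.0229 and 0.0114). The call against HFD was lost with plain library totals, with only the 2 diets fitted and without HFD replicate 2 or 3, and that against control with plain totals and without control replicate 2 or 3. The span of the Uqcrq gene overlaps that of Gdf9 in the annotation. Overlap of their exons was not examined and strand use of the counts is not given, so whether the pair shares reads is not known. The catalytic haem protein Cyc1 (cytochrome c1) had 181, 92.3 and 155 CPM in HFD+LYC, 131, 151 and 158 CPM in HFD and 130, 132 and 141 CPM in control RNC libraries, and the groups overlapped. Complex III thus held a fall of Uqcrfs1, Uqcrc2 and Uqcrb and a rise of Uqcrq in the same libraries.

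In complex IV, Cox7b had 110, 78.1 and 56.4 CPM in HFD+LYC RNC libraries, against 343, 366 and 454 CPM in HFD RNC and 384, 391 and 308 CPM in control RNC libraries. This membrane subunit fell 4.75-fold against HFD (log2 fold change -2.25, SE 0.29, edgeR adjusted p = 0.000879) and the groups did not overlap. Cox5a, a subunit on the matrix side, had 72.9, 29.7 and 27.9 CPM in HFD+LYC RNC, 99.4, 181 and 193 CPM in HFD RNC and 182, 182 and 164 CPM in control RNC libraries, and fell 3.64-fold against HFD (edgeR adjusted p = 0.00813). Cox7a2 had 57.5, 111 and 52.9 CPM in HFD+LYC RNC libraries, 166, 205 and 255 CPM in HFD RNC and 182, 203 and 175 CPM in control RNC, and fell 2.83-fold against HFD (edgeR adjusted p = 0.00698). The Cox7a2 gene overlaps Tmem30a.

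Cox5b, the zinc-binding subunit on the matrix side, had 424, 404 and 619 CPM in HFD+LYC RNC libraries, above 314, 242 and 277 CPM in HFD RNC and 349, 286 and 238 CPM in control RNC libraries. Its rise of 1.74-fold against HFD lay at the edge of the threshold (edgeR adjusted p = 0.0478) and was lost in 11 of 17 alternatives. Against control it was not called (adjusted p = 0.0661). Other complex IV messages with tissue isoforms overlapped between HFD+LYC and HFD. Cox4i1 had 426, 298 and 398 CPM in HFD+LYC and 353, 352 and 366 CPM in HFD RNC libraries. Cox6a1 had 561, 272 and 381 CPM in HFD+LYC and 271, 369 and 370 CPM in HFD RNC libraries, and Cox8a had 290, 157 and 195 CPM in HFD+LYC and 226, 357 and 305 CPM in HFD RNC libraries.

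ATP synthase held the largest fall and the largest rise of the 38 members. Atp5f1, subunit b, is the rod of the peripheral stalk that holds the catalytic head still against the turning rotor. It had 37.9, 43.4 and 30.3 CPM in HFD+LYC RNC libraries, against 159, 391 and 327 CPM in HFD RNC and 275, 294 and 323 CPM in control RNC libraries. The fall was 7.88-fold against HFD and 8.00-fold against control (log2 fold change -2.98, SE 0.35 and -3.00, SE 0.35; edgeR adjusted p = 0.000556 and 0.000470). It was called in each of 17 alternatives. Atp5j, coupling factor 6 of the same stalk, had 172, 151 and 165 CPM in HFD+LYC RNC, 414, 364 and 451 CPM in HFD RNC and 437, 395 and 327 CPM in control RNC libraries, and fell 2.53-fold against HFD (edgeR adjusted p = 0.00279). The Atp5j gene overlaps Gabpa. The other stalk subunits were not called: Atp5h had 316, 292 and 416 CPM in HFD+LYC and 312, 293 and 333 CPM in HFD RNC libraries, and Atp5o changed by a log2 value of -0.20 (SE 0.21).

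The central stalk was split. Atp5c1, the gamma subunit that turns inside the head, had 91.1, 51.2 and 102 CPM in HFD+LYC RNC libraries, against 223, 345 and 314 CPM in HFD RNC and 304, 303 and 328 CPM in control RNC libraries, and fell 3.60-fold against HFD (edgeR adjusted p = 0.00284). Atp5d, the delta subunit at the foot of the same stalk, had 466, 742 and 731 CPM in HFD+LYC RNC, against 218, 173 and 192 CPM in HFD RNC and 233, 207 and 179 CPM in control RNC libraries. It rose 3.32-fold against HFD and 3.13-fold against control (log2 fold change 1.73, SE 0.26 and 1.65, SE 0.26; edgeR adjusted p = 0.00178 and 0.00223). Atp5e, which sits beside Atp5d, had 279, 351 and 363 CPM in HFD+LYC and 412, 200 and 271 CPM in HFD RNC libraries and overlapped. The Atp5d gene overlaps Cbarp in the annotation, and scaled by plain library totals its rise was not called in either comparison. Atp5l, subunit g of the membrane part, had 153, 134 and 76.5 CPM in HFD+LYC RNC, 214, 281 and 312 CPM in HFD RNC and 231, 285 and 242 CPM in control RNC libraries and fell 2.22-fold against HFD (edgeR adjusted p = 0.0160). This call was lost with only the 2 diets fitted, without HFD replicate 2 or 3 and with GC-adjusted offsets, and the call against control with only the 2 diets fitted, without any 1 control replicate and with GC-adjusted offsets.

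The catalytic head lay just outside the threshold. Atp5a1, its alpha subunit, had 176, 300 and 247 CPM in HFD+LYC RNC libraries and 282, 577 and 506 CPM in HFD RNC libraries (log2 fold change -0.92, SE 0.31, edgeR adjusted p = 0.0575). Atp5b, the beta subunit that holds the catalytic sites, had 220, 308 and 342 CPM in HFD+LYC and 370, 620 and 511 CPM in HFD RNC libraries (-0.79, SE 0.28, edgeR adjusted p = 0.0602). The values of Atp5a1 overlapped and those of Atp5b did not. Cox6c of complex IV was likewise close, with 274, 403 and 366 CPM in HFD+LYC and 675, 478 and 646 CPM in HFD RNC libraries (-0.79, SE 0.27, edgeR adjusted p = 0.0599). On the other side Uqcrc1, the second core protein of complex III, had 169, 169 and 262 CPM in HFD+LYC and 156, 116 and 115 CPM in HFD RNC libraries (0.64, SE 0.26, edgeR adjusted p = 0.107). The spans of the Atp5a1 gene and its neighbour Haus1 overlap in the annotation.

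These changes altered the order of the messages per length. Uqcrb averaged 271 CPM per kb in HFD+LYC RNC, the fourth of complex III, against 744 in HFD and 794 in control RNC libraries, where it was the first. Atp5d averaged 725 CPM per kb in HFD+LYC RNC, against 218 in HFD and 231 in control RNC libraries, and so moved up to the second place of the ATP synthase messages, where rank 10 and rank 11 were its places in HFD and control RNC.

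**Figure D1:**
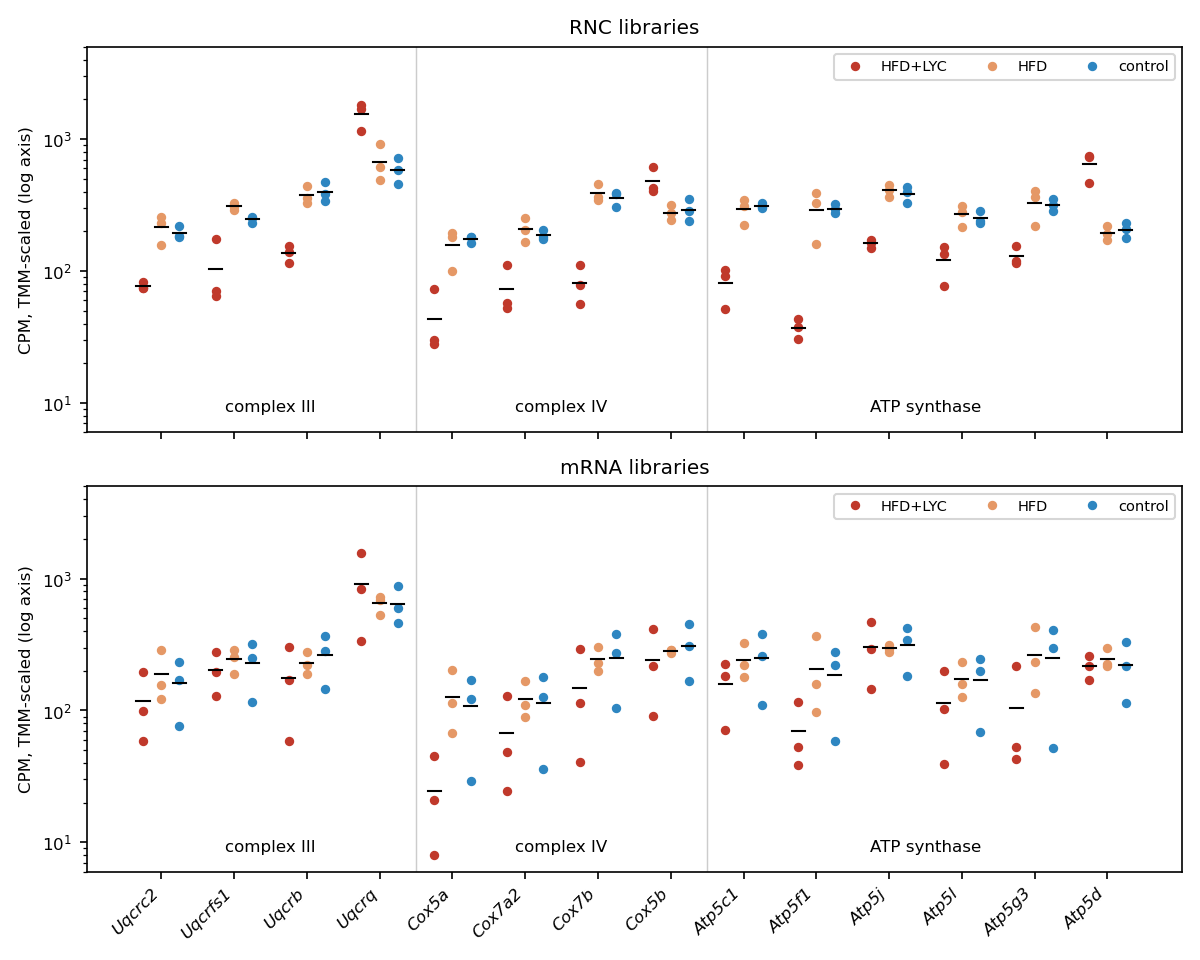
TMM-scaled CPM on a log axis of the 14 members called in HFD+LYC against HFD RNC libraries, in RNC (top) and mRNA (bottom) libraries; each point is 1 liver and each bar the mean of 3. In RNC, Atp5f1 at 30.3 to 43.4 CPM in HFD+LYC lies apart from 159 to 391 CPM in HFD, and Atp5d at 466 to 742 CPM lies above 173 to 218 CPM.

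The ring of c subunits, which proton flow turns, is a case in which 3 genes make the same mature protein. Atp5g1 (chr11:96072793-96075694), Atp5g2 (chr15:102662868-102671047) and Atp5g3 (chr2:73908447-73912464, all GRCm38) differ in their import signals. The last 225 coding bases before the stop codon encode the same 75 residues in all 3 genes, with 0 differing residues. They are shown because within this stretch the genes differ only by silent changes, marked here in capitals at the 57 positions that the 3 sequences do not all share (GENCODE M21 transcripts, GRCm38, sense strand).
Atp5g1: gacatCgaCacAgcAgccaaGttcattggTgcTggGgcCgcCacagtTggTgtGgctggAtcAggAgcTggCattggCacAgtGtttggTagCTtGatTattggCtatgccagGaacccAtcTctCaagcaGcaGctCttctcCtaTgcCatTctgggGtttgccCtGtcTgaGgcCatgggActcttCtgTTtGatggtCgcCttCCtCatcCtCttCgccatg
Atp5g2: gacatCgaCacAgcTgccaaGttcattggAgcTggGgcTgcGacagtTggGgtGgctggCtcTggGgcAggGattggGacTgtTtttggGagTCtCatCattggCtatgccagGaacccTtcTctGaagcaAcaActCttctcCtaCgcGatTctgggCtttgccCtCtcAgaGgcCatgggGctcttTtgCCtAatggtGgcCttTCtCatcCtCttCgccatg
Atp5g3: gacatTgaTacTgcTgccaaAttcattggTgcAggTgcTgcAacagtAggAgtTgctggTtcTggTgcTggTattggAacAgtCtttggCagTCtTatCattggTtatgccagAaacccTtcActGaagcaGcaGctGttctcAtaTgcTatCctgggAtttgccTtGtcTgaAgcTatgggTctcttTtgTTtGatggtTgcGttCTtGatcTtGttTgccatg

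Identity over these bases was 84.9% between Atp5g1 and Atp5g2, 80.0% between Atp5g1 and Atp5g3 and 78.7% between Atp5g2 and Atp5g3. The longest run shared by a pair was 20 bases, in Atp5g1 and Atp5g2. Guanine and cytosine made up 54.7%, 55.6% and 45.8% of the stretch in Atp5g1, Atp5g2 and Atp5g3. No source used here says how reads that match more than 1 gene were counted, so counts of the 3 genes carry that uncertainty.

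Of the 3 c-subunit genes, Atp5g3 alone was called. It had 114, 155 and 118 CPM in HFD+LYC RNC libraries, against 221, 363 and 405 CPM in HFD RNC and 353, 316 and 286 CPM in control RNC libraries, with no overlap. It fell 2.55-fold against HFD and 2.47-fold against control (edgeR adjusted p = 0.00589 and 0.00700). Atp5g1 had 165, 96.3 and 132 CPM in HFD+LYC and 107, 169 and 181 CPM in HFD RNC libraries (log2 fold change -0.21, SE 0.28). Atp5g2 had 106, 68.3 and 92.9 CPM in HFD+LYC and 65.9, 94.7 and 104 CPM in HFD RNC libraries (0.01, SE 0.25), and both overlapped. The difference between the genes was not tested.

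The make-up of the c-subunit message pool is the same comparison within a library, which scaling between libraries does not touch. Per kb, Atp5g3 made up 30.3%, 49.1% and 35.0% of the 3 genes' CPM in HFD+LYC RNC, against 56.9%, 58.8% and 59.6% in HFD RNC and 54.6%, 51.7% and 48.4% in control RNC libraries. In mRNA libraries it made up 23.0%, 44.0% and 37.0% in HFD+LYC livers, against 48.4%, 54.9% and 56.8% in HFD and 50.9%, 35.2% and 52.9% in control livers. HFD+LYC lay below HFD in both kinds of library, and in RNC 1 HFD+LYC library (49.1%) reached the control range.

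**Figure D2:**
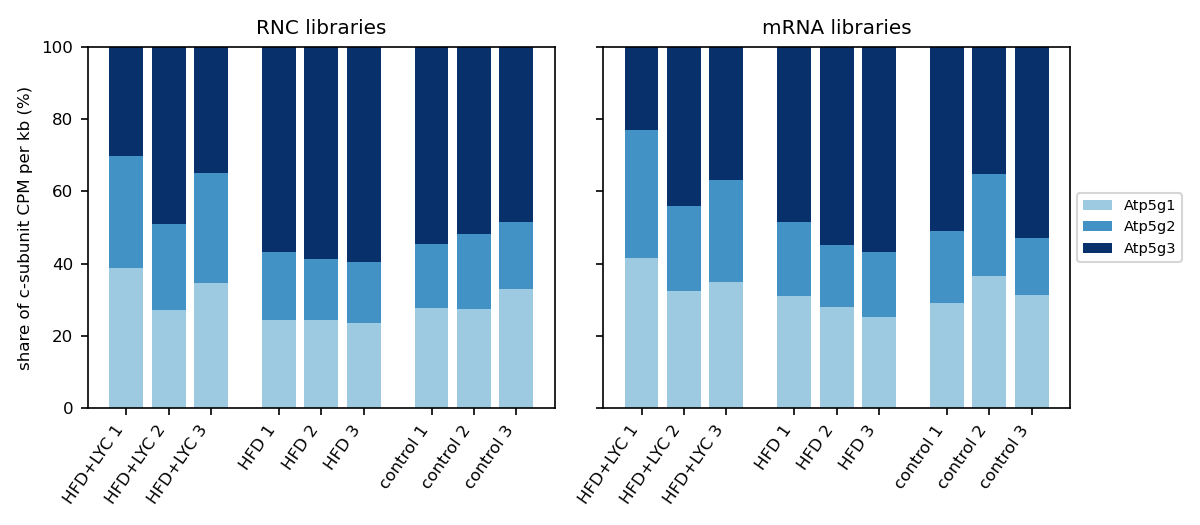
Share of the summed c-subunit level (CPM per kb) taken by Atp5g1, Atp5g2 and Atp5g3 in each library, RNC left and mRNA right, with 1 bar per liver. Atp5g3, the dark part, makes up 30.3% to 49.1% in HFD+LYC RNC and 56.9% to 59.6% in HFD RNC libraries.

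In total mRNA no member was called between HFD+LYC and HFD by edgeR (0 of 38, against 1.99% of all genes that rose and 0.916% that fell, 2.91% in all). An unadjusted p below 0.05 was reached by 6 of the 38 members and by 3078 of all 12664 genes tested. In the same comparison DESeq2 called 3 members and limma-voom 0, and their shares over all genes are not given. Same-numbered HFD+LYC and HFD mRNA libraries deviated together (r = 0.16, 0.35 and 0.52). Of the different-numbered pairs, HFD replicate 1 with HFD+LYC replicate 2 reached 0.26, and the others ran from -0.44 to -0.0071. Replicate numbers are not stated to link livers of different diets, so whether a block is warranted is not known. With the replicate number as a block edgeR called 4 members, 1 higher and 3 lower, among 852 genes higher and 605 lower. Among them were Cox5a (-2.69), Atp5s (-1.23) and Atp5sl (1.15), with edgeR adjusted p = 0.0147, 0.0491 and 0.0329 in the blocked fit. The members leaned downward: 28 of 38 lay below 0 with a median log2 fold change of -0.42, against -0.04 over all genes. Leaving out HFD+LYC replicate 2 moved that median to -0.13, and leaving out HFD+LYC replicate 3 moved it to -0.99. Cox5a was the lowest, with 20.8, 8.01 and 44.9 CPM in HFD+LYC mRNA, against 67.0, 113 and 202 CPM in HFD and 171, 28.9 and 122 CPM in control mRNA libraries (HFD+LYC over HFD -2.37, SE 0.71, edgeR adjusted p = 0.0884). HFD+LYC did not overlap HFD, but did overlap control.

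Unlike Cox5a, the following members called in RNC overlapped between HFD+LYC and HFD in mRNA. Atp5d had 171, 219 and 258 CPM in HFD+LYC mRNA, 224, 218 and 296 CPM in HFD mRNA and 331, 113 and 216 CPM in control mRNA libraries (HFD+LYC over HFD -0.19, SE 0.40). Atp5f1 had 52.8, 38.4 and 117 CPM in HFD+LYC, 97.6, 158 and 366 CPM in HFD and 280, 58.4 and 222 CPM in control mRNA libraries (-1.58, SE 0.65, edgeR adjusted p = 0.166). Cox7b had 113, 40.7 and 292 CPM in HFD+LYC and 200, 231 and 300 CPM in HFD mRNA libraries (-0.71, SE 0.63). HFD+LYC replicate 2 held the lowest and replicate 3 the highest of the HFD+LYC values of Atp5f1 and Cox7b. Atp5j had 294, 146 and 467 CPM in HFD+LYC and 279, 292 and 314 CPM in HFD mRNA libraries (0.035, SE 0.45), and Uqcrq had 834, 338 and 1575 CPM in HFD+LYC and 722, 691 and 534 CPM in HFD mRNA libraries (0.50, SE 0.51).

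Atp5s was the only member that edgeR without a block called in mRNA, and only against control. It had 2.95, 2.31 and 4.51 CPM in HFD+LYC mRNA, against 6.72, 8.88 and 7.61 CPM in HFD and 9.85, 13.8 and 9.14 CPM in control mRNA libraries. All 3 HFD+LYC values lay below the rest, and the fall against control was 3.33-fold (log2 fold change -1.74, SE 0.35, edgeR adjusted p = 0.0174, 1 of 38 members against 2.23% of all genes that fell). None of the 38 rose, against 3.31% of all genes, and 5.54% of all genes were called in either direction. The call was lost without control replicate 3, without HFD+LYC replicate 1 or 2 and with GC-adjusted offsets (edgeR adjusted p = 0.0646, 0.0705, 0.0588 and 0.0841). Its partner in name, Atp5sl, had 135, 158 and 112 CPM in HFD+LYC mRNA, above 81.2, 67.7 and 37.3 CPM in HFD and 46.4, 79.2 and 46.3 CPM in control mRNA libraries, and was not called (edgeR adjusted p = 0.101 against HFD and 0.0690 against control).

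**Figure D3:**
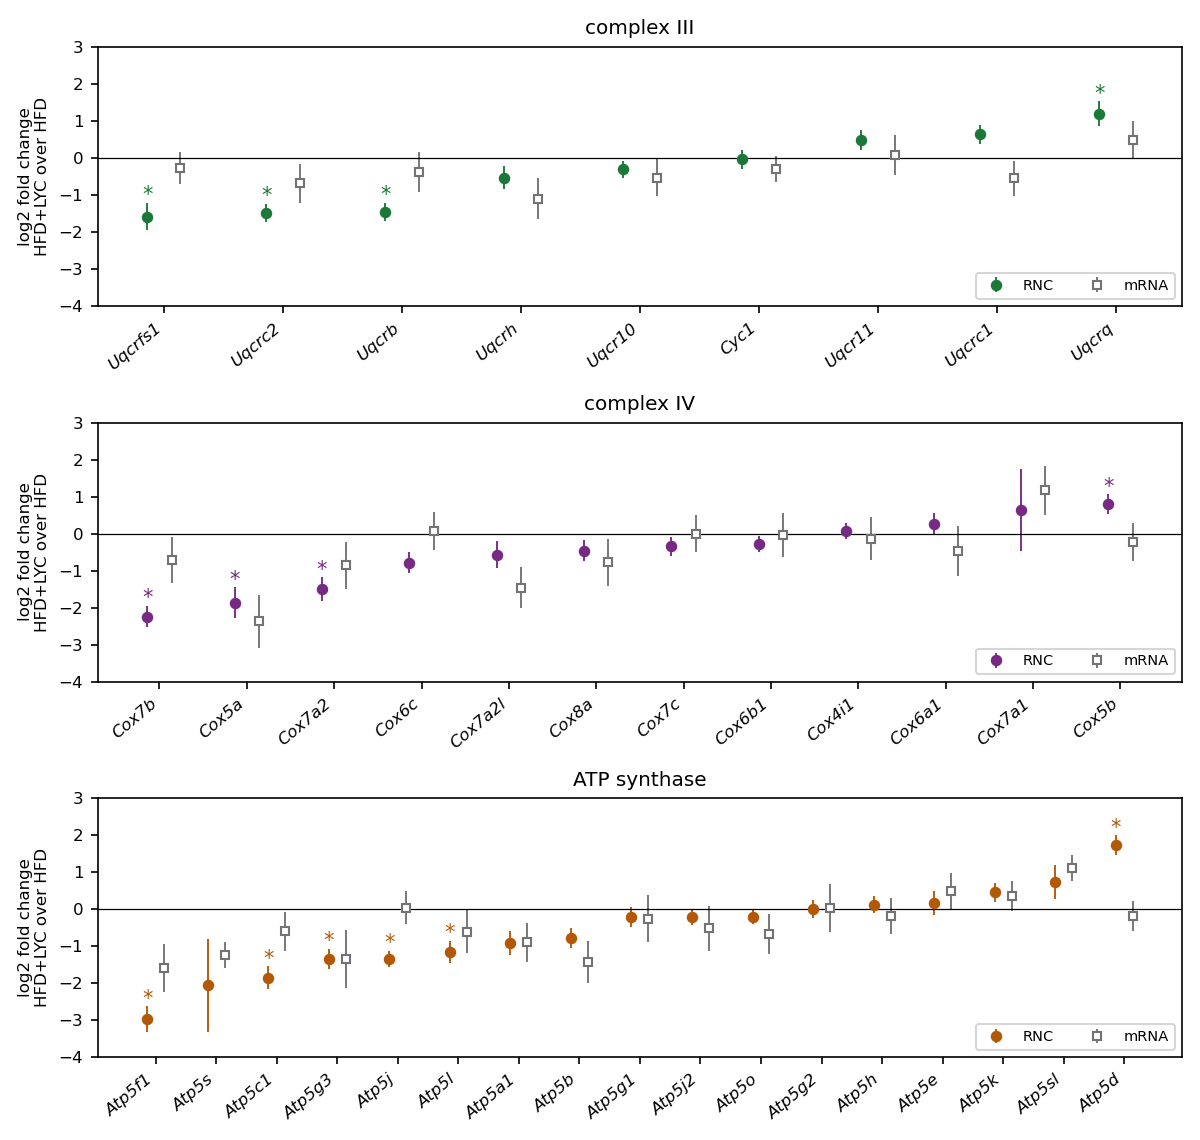
Log2 fold change, HFD+LYC over HFD, of the 38 tested members by complex, ordered by the RNC value; filled circles are RNC, open squares mRNA, bars 1 SE, and an asterisk marks an RNC call at adjusted p below 0.05. Atp5d is at 1.73 in RNC and -0.19 in mRNA, and Atp5f1 at -2.98 and -1.58.

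The RNC changes ran along with the base composition of the messages. Across the 38 members, Spearman's rho between the GC percentage of the transcript and the log2 fold change of HFD+LYC over HFD was 0.62 in RNC and 0.35 in mRNA libraries, against 0.41 in both over all genes. Genes share the same libraries and are not independent replicates, so these are descriptions. Of 4 members under 45% GC, 3 fell in RNC, and their median was -1.77, against -0.79 for 9 members of 45% to 50% and -0.04 for 25 members of 50% or more. Cox7b (42.0% GC), Uqcrb (42.2%) and Uqcrc2 (44.4%) lie at the low end and Atp5d (61.1%) at the high end, while Atp5j (56.0%) fell.

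A fit that removed each library's trend with GC was added after seeing the data. In HFD+LYC against HFD it kept 6 of the 14 RNC calls: Atp5f1, Atp5c1, Atp5j, Atp5d, Uqcrq and Cox5b. The other 8 (Uqcrb, Uqcrc2, Uqcrfs1, Cox5a, Cox7a2, Cox7b, Atp5g3 and Atp5l) were not called in it, and Uqcrb, Uqcrc2 and Atp5l came out at 0.14, 0.00090 and 0.037 on the log2 scale. The members' median was then 0.15 against 0.53 over all genes. In all, that fit called 8 members higher and 3 lower, for which the share over all genes is not given. The median over all genes had moved up from -0.29 in the main fit to 0.53 in that fit, above the members' 0.15. The part of this shift in the kept, lost and added calls was not tested.

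**Figure D4:**
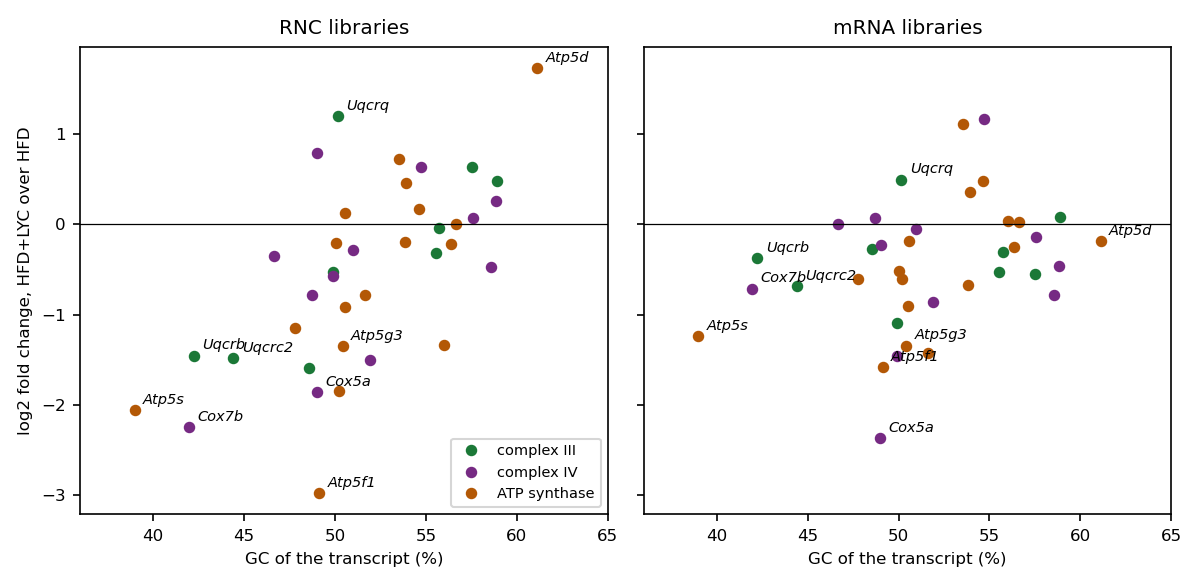
Log2 fold change of HFD+LYC over HFD against the GC percentage of the transcript for the 38 tested members, RNC left and mRNA right, coloured by complex. In RNC, Cox7b at 42.0% GC is at -2.25 and Atp5d at 61.1% GC at 1.73, while Atp5f1 at 49.1% GC lies lowest at -2.98.

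RNC against mRNA compared how much of each message was carried by ribosomes. Across diets nearly all members stood higher in RNC than in mRNA libraries: 32 of 38 in HFD+LYC livers, 37 of 38 in HFD livers and 36 of 38 in control livers, with median log2 differences of 1.05, 1.24 and 1.23, against -0.51, -0.05 and -0.07 over all genes. This was not particular to the members. Of 38 complex I genes 34, 37 and 37 lay above 0 in the same order, with medians of 0.96, 1.17 and 1.10. The medians of 4 complex II genes were 1.03, 1.02 and 1.21. In HFD+LYC livers 17 members were called higher in RNC (44.7%, against 12.8% of all genes) and 1 lower (2.63%, against 30.6%). In HFD and control livers edgeR called 0 members, against 0.101% of all genes in HFD livers and 2.13% in control livers (0.0155% higher and 2.11% lower). An unadjusted p below 0.05 was reached by 25 and 31 of the 38 members, and by 2680 and 3512 of all 12872 genes tested. DESeq2 called 13 and 15 members, but its share over all genes is not given, so these counts do not compare members with other genes. The smallest edgeR adjusted p was 0.0971 for Atp5j in HFD livers and 0.0686 for Uqcrb in control livers. These differences depend on how the 2 kinds of library are scaled. With plain library totals the medians were -0.10, 0.56 and 0.57, against -1.81, -0.74 and -0.80 over all genes. The members' distance from all genes was then 1.71, 1.31 and 1.37. Rescaling shifts all genes of a library alike, so this distance could hardly move and is no test of the scaling.

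Across all genes, Spearman's rho between the RNC over mRNA difference and transcript length was -0.13 in HFD+LYC, -0.37 in HFD and -0.40 in control livers, and the part of length in the members' values was not tested. The members called in HFD+LYC livers were 6 of complex III (Uqcrc1, Cyc1, Uqcrh, Uqcrq, Uqcr10 and Uqcr11), 5 of complex IV (Cox5a, Cox5b, Cox6a1, Cox7a2l and Cox8a) and 6 of ATP synthase (Atp5b, Atp5d, Atp5h, Atp5j2, Atp5k and Atp5o). Without HFD+LYC replicate 1, replicate 2 or replicate 3 the calls in either direction numbered 8, 9 and 29 of 38. With all libraries 43.4% of all genes were called in either direction, and the share in each left-out fit is not given. These counts therefore show how far the calls moved and not whether members differ from other genes. Atp5sl was the 1 called lower, with 14.7, 27.7 and 54.4 CPM in RNC and 97.9, 111 and 82.3 CPM in mRNA libraries of HFD+LYC livers on the scale of all 18 libraries. Its log2 difference was -1.58 in HFD+LYC (SE 0.41, edgeR adjusted p = 0.00541), -1.12 in HFD and -0.86 in control livers.

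Atp5d stood out in this comparison. On the scale of all 18 libraries it had 634, 975 and 1001 CPM in RNC and 124, 155 and 189 CPM in mRNA libraries of HFD+LYC livers. HFD livers had 311, 244 and 273 CPM in RNC and 161, 157 and 217 CPM in mRNA libraries. The log2 difference was 2.48 (SE 0.36, edgeR adjusted p = 7.162e-05) in HFD+LYC, 0.63 in HFD and 0.86 in control livers. The diet effect on RNC relative to mRNA, tested as an interaction, was called for Atp5d alone among the members: 1.85 against HFD (SE 0.49, edgeR adjusted p = 0.0150, 1 of 38 members against 3.42% of all genes that rose) and 1.62 against control (SE 0.49, adjusted p = 0.0330, against 2.77%). The first was lost with plain library totals and without HFD replicate 2 or replicate 3 (edgeR adjusted p = 0.119, 0.0561 and 0.0812). The second was lost in 10 of 17 alternatives, among them the liver as a block (edgeR adjusted p = 0.0536), where the count was 0. Between HFD and control this effect was called for 0 members by edgeR, against 0% of all genes, and 0 members had an unadjusted p below 0.05, against 20 of 12872 genes.

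**Figure D5:**
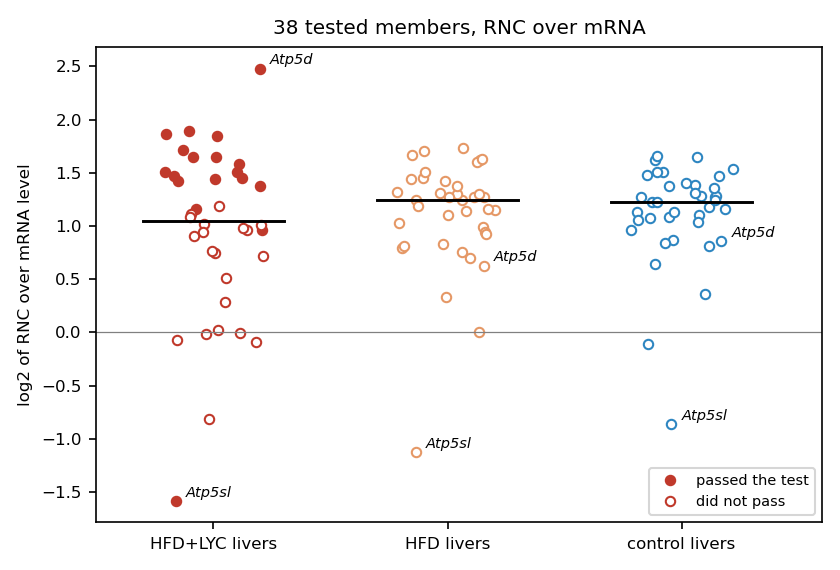
Log2 of the RNC over the mRNA level for the 38 tested members in HFD+LYC, HFD and control livers; filled points passed at adjusted p below 0.05, black bars are medians (1.05, 1.24 and 1.23), and points are spread sideways for legibility. Atp5d is at 2.48 in HFD+LYC and 0.63 in HFD livers, and Atp5sl is below 0 in all 3.

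Other genes of the pathway were counted in HFD+LYC against HFD RNC libraries, in which 17.4% of all genes fell and 9.34% rose. Of 38 listed complex I genes 10 fell and 5 rose, with a median log2 fold change of -0.22, among them Ndufs4, which fell 2.86-fold, and Ndufb7, which rose 3.70-fold (edgeR adjusted p = 0.00294 and 0.00338). Ndufa4, now counted as a subunit of complex IV, fell 2.70-fold. Of 4 complex II genes, Sdha and Sdhc fell. Cycs, the cytochrome c that links complexes III and IV, had 138, 209 and 108 CPM in HFD+LYC RNC, against 307, 322 and 385 CPM in HFD RNC libraries, and fell 2.23-fold (edgeR adjusted p = 0.0113).

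Of 7 genes of ATP synthase assembly and inhibition, 4 fell and none rose in the same comparison, against the same 17.4% and 9.34% of all genes, which also stand beside the assembly genes below. Atpif1, the inhibitor that stops ATP synthase from running backwards, had 6.62, 5.56 and 7.23 CPM in HFD+LYC RNC, against 19.2, 26.8 and 23.4 CPM in HFD RNC libraries, and fell 3.57-fold (edgeR adjusted p = 0.00217). Fmc1, Usmg5 and 2010107E04Rik also fell. Of 24 tested complex IV assembly genes, Cox18, Lrpprc and Higd1a fell and Cox10, which makes haem O on the way to haem a, rose 7.77-fold. Of 6 complex III assembly genes Uqcc3 rose 2.98-fold. In mRNA none of the genes of these 5 lists or Cycs was called by edgeR.

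Of 11 regulators of mitochondrial genes, Esrra and Ppargc1b rose and none fell in both kinds of library, where 9.34% of all genes rose in RNC and 1.99% in mRNA. Esrra, a nuclear receptor for genes of oxidative metabolism, had 27.7, 40.1 and 23.0 CPM in HFD+LYC RNC, against 14.5, 12.7 and 13.3 CPM in HFD RNC libraries. In mRNA it had 208, 153 and 124 CPM in HFD+LYC, against 45.1, 58.9 and 25.5 CPM in HFD livers, and rose 3.75-fold (edgeR adjusted p = 0.0240). Ppargc1b, its coactivator, had 11.9, 19.7 and 9.02 CPM in HFD+LYC mRNA and 3.10, 3.98 and 2.27 CPM in HFD mRNA libraries and rose 4.34-fold (edgeR adjusted p = 0.0481). In mRNA between the same livers, edgeR called 0 of the 38 members without a block and 4 with it (1 higher and 3 lower). DESeq2 called 3, again without its share over all genes.

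Promoter letters were compared for the 31 tested members with a RefSeq promoter (GRCm38.p6, the 250 bases before the gene start, both strands). The NRF-1 motif was in 5 (16.1%, against 9.17% of tested genes with a promoter), those of Atp5c1, Atp5g2, Atp5h, Atp5k and Cox6a1. The YY1 motif was in 2 (6.45%, against 2.45%), the ETS core CCGGAAG in 8 (25.8%, against 15.3%), CCAAT in 17 (54.8%, against 40.7%) and GGGCGG in 9 (29.0%, against 61.9%). Atp5d and Atp5f1, which moved furthest in opposite directions, held no match to the NRF-1, YY1, ETS or CCAAT letters. GGGCGG was in the promoter of Atp5f1 and not in that of Atp5d.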

How the data were processed

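Members and gene lists were chosen with earlier results of these data known, so lists are described by counts and medians only. Per the file headers, each of the 18 deposited files holds a whole-number read count, an RPKM value and the longest transcript length for each gene, splice variants merged. Reads were mapped to RefSeq RNA per the series' design text, with mm10 and bcl2fastq named in the submitters' processing notes, and no source used here gives the aligner or the use of strand. RPKM, deposited by the authors beside the counts, served only as an alternative to CPM per kb.

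Counts were fitted with edgeR 4.0.16 in R 4.3.3: filterByExpr by group (minimum count 10, total 15), TMM, robust quasi-likelihood, two-sided tests, and Benjamini-Hochberg adjustment over all genes. The 9 mRNA libraries (12664 genes), the 9 RNC libraries (11660) and all 18 (12872, for RNC against mRNA and the ratio) were fitted apart. The fits were tested on simulated data. Alternatives used DESeq2 1.42.0, limma-voom (limma 3.58.1), other scalings, no filter, left-out replicates, a replicate block and GC offsets (loess, span 0.5).

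Values by library are given for called members, the 2 members with the smallest p in each direction of each diet comparison, the tissue isoforms, and the 3 highest members per length of each complex. Other members shown by library were chosen after their values were seen. Transcript GC came from GENCODE M21. Listed reads were 4533729 to 12742436 per library, so 3 reads were 0.235 to 0.662 CPM, and such limits cover counting error only. File names give the mRNA and RNC library of a liver the same animal code, and residuals of these pairs correlated at -0.05 to 0.60 (3 of 9 over 0.1). Replicate numbers are not stated to link different diets. By residuals, same-numbered HFD+LYC and HFD mRNA libraries correlated over 0.1 in all 3 pairs, so blocked values stand beside that comparison, and the other diet comparisons did not meet this.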

Additional observations from a re-analysis of the deposited data

Results flagged for a closer look

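Atp5d differed between ribosome-bound and total RNA in its diet effect, with calls that did not hold under each alternative. The diet effect on RNC minus that on mRNA, tested as an interaction in edgeR, was 1.85 on the log2 scale for HFD+LYC against HFD (adjusted p = 0.0150) and 1.62 for HFD+LYC against control (adjusted p = 0.0330). The first call was lost with plain library totals and without HFD replicate 2 or 3 (adjusted p = 0.119, 0.0561 and 0.0812), and the second in 10 of 17 alternatives, among them the liver as a block (adjusted p = 0.0536). In RNC libraries all 3 HFD+LYC livers lay above all HFD and control livers, and in mRNA libraries the 3 diets overlapped. Both contrasts share the HFD+LYC libraries, and the HFD+LYC RNC libraries had the fewest genes with a read; their part in the result was not tested.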

How the results depend on the processing

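No member was called between HFD and control in either kind of library under any of the 17 alternatives. In the 1053 gene-level alternatives, 922 kept direction and side of the threshold, 109 lost a call, 14 gained one and 8 reversed, and the cause was not tested. In RNC, Atp5c1, Atp5f1 and Atp5j were called in both HFD+LYC comparisons under all 17. The call counts that follow are of members only, without the share over all genes under each alternative. They therefore show how far the counts moved and not whether members differ from other genes. With DESeq2's Wald test 3 members were called in each HFD+LYC mRNA comparison, 2 for the ratio against HFD, and 13 in HFD and 15 in control livers for RNC against mRNA, where limma-voom called 1 in control livers. With a replicate block the mRNA calls were 4 against HFD and 3 against control and the ratio calls against control 0, which was also their number with only the 2 diets fitted. Plain library totals gave RNC medians of -0.94 against HFD and -0.82 against control, 3 ratio calls in each HFD+LYC comparison, all lower, and a ratio median of -0.67 against control. For RNC against mRNA they gave 5 calls and a median of -0.10 in HFD+LYC livers (Cyc1 at -0.45), 1 call and 0.56 in HFD livers and 0.57 in control livers. Without a filter the RNC median against HFD was -0.53. GC-adjusted offsets gave 0 mRNA calls against control, RNC medians of 0.15 and 0.086 against HFD and control, ratio calls of 3 and 3 with medians of 0.77 and 0.78, and 32 calls with a median of 2.09 for RNC against mRNA in HFD+LYC livers. They put Atp5l at 0.037, Uqcrb at 0.14 and Uqcrc2 at 0.00090 against HFD, and Atp5l at 0.092 and Uqcrc2 at 0.081 against control. Outside the 10 most abundant genes the members' share was 1.13% in HFD+LYC RNC, 1.75% in HFD RNC, 1.61% in control RNC and 1.06% in HFD mRNA libraries. By deposited RPKM their median level was 123 in HFD+LYC, 365 in HFD and 322 in control RNC libraries. Leaving out 1 replicate at a time gave 0 to 1 mRNA calls against HFD (median -0.99 to -0.13) and 0 to 3 against control (-0.97 to 0.03). In RNC it gave 11 to 17 calls against HFD and 10 to 16 against control. Ratio calls were 0 to 5 against HFD (-0.32 to 0.63) and 0 to 2 against control (-0.46 to 0.57). RNC against mRNA gave 8 to 29 calls in HFD+LYC (0.71 to 1.75), 0 to 4 in HFD and 0 to 15 in control livers, where the medians ran from 0.85 to 1.66. For HFD against control the mRNA median ran from -0.34 to 0.40 and the ratio median from -0.43 to 0.34, Atp5b in mRNA from -0.32 to 0.86 and Uqcrb from -0.51 to 0.10. Same-numbered livers of different diets correlated over 0.1 in 7 of 9 mRNA and 2 of 9 RNC pairs. Precision is limited by 3 livers a diet and by the few genes read in HFD+LYC RNC libraries.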
